A study of Mus musculus with 6 samples.

Results

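Osteopontin, encoded by Spp1, and CD44, a cell surface protein that binds it, were followed at the RNA level in cultured organoids of KPF_5.3G, a mouse line of pancreatic ductal adenocarcinoma (PDAC). They are 2 of the 14254 genes listed. Spp1 was chosen by its level in the control libraries, where it is among the most abundant transcripts, and Cd44 as its receptor gene. Organoids are tumour cells grown as small three-dimensional bodies, here in a medium supplemented with gastrin, Noggin, R-spondin-1, FGF-10 and EGF. The knockdown group (shJag1_3) carried a lentiviral short hairpin RNA, the hairpin numbered 3, against the Notch ligand gene Jag1 (3 libraries). The reference group (shCtrl, labelled wild type) carried a control hairpin (3 libraries). Both groups thus share the line, the medium and a hairpin vector, and the knockdown rests on a single line and a single hairpin. The comparison addresses the part Jag1 plays in tumour-initiating cells that carry much CD9 on their surface.

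Osteopontin is a secreted, heavily phosphorylated glycoprotein of the SIBLING family, known from bone matrix and also made by ductal epithelium, tumour cells and macrophages. It binds integrins through an arginine-glycine-aspartate (RGD) sequence and through a neighbouring site that thrombin cleavage lays open, and it has been reported to bind CD44. CD44 is the main receptor for the matrix sugar hyaluronan. It exists in many splice forms, joins the actin cytoskeleton through ezrin, radixin and moesin, and is shed from the cell surface by proteases.

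Spp1 (ENSMUSG00000029304) is located at chr5:104435118-104441050 (plus strand) and Cd44 (ENSMUSG00000005087) at chr2:102811141-102901665 (minus strand; GRCm38, GENCODE M21). The integrin-binding codons of Spp1 are shown in capitals, with 30 bases on either side, because many of the integrins described further on bind osteopontin at this site. They were read from the transcript Spp1-205, and 6 of the 7 annotated Spp1 transcripts held them.

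Spp1 RGD codons: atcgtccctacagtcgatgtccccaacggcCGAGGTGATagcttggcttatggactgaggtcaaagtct

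The 250 bases before the start of each gene (RefSeq, GRCm38.p6) are shown because both genes were lower in the knockdown library of every replicate number. Capitals mark matches to any of 6 short motifs, searched on both strands, and no 2 matches overlapped. One is TGGGAA, the core read by RBPJ, which is the DNA-binding partner of Notch. RUNX factors read TGTGGT, and the AP-1 complex of Fos and Jun proteins reads TGANTCA. The TCF factors of Wnt signalling read CTTTGAT. The other two are the TATA box, searched as TATAAA, and the GC box read by Sp factors, searched as GGGCGG. The Spp1 sequence is chr5:104434861-104435110 on the plus strand, and the Cd44 sequence is chr2:102901666-102901915 on the minus strand.

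Spp1 upstream: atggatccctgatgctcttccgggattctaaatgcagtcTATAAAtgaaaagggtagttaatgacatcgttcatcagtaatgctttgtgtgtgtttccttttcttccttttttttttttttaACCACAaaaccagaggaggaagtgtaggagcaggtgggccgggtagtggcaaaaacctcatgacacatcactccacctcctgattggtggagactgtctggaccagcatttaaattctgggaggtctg
Cd44 upstream: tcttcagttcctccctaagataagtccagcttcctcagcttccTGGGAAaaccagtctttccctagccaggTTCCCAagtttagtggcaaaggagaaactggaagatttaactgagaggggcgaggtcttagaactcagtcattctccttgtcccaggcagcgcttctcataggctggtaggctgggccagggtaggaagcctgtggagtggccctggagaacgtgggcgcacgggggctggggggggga

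The Spp1 window held 1 RUNX match, on the strand opposite to the gene and 128 bases before the start, and 1 TATA box match 211 bases before it. The Cd44 window held 2 RBPJ core matches, 207 and 179 bases before the start, and the Spp1 window held none. Of the 32851 mouse promoter windows of the same length, 21.6% held the RBPJ core at least 1 time, 14.0% the RUNX motif and 12.4% the TATA box. A single match to any of these is thus common. How many windows held 2 RBPJ core matches, as that of Cd44 did, was not counted. The AP-1, TCF and GC box motifs, present in 6.75%, 3.21% and 32.7% of windows, matched in neither. A second Spp1 start, whose window held no match to any of the 6, is not shown.

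The libraries held 29824152, 23219455 and 35172593 reads in knockdowns 1, 2 and 3, and 30515717, 24188827 and 22268997 in controls 1, 2 and 3, spike-ins included. Knockdown 1 and control 1 stood apart from the other 4 libraries: they correlated with each other at r = 0.986 across genes, and with the others at 0.910 to 0.935. The defining epithelial and ductal markers were all 8 listed, with a summed level of 229062 to 594989 normalised counts in knockdown libraries and 173577 to 239226 in control libraries. Most of this sum was keratin counts, and the markers did not differ alike. Epcam ran from 8720 to 18880 in the knockdown and from 3566 to 8055 in the control. Cldn4 ran from 5642 to 13997 and from 649 to 2138, and Sox9 from 1464 to 5754 and from 2488 to 5592. Jag1, the targeted gene, had 226, 321 and 557 normalised counts in knockdowns 1, 2 and 3 and 412, 983 and 847 in controls 1, 2 and 3. It was lower in each pair (same replicate number), but knockdown 3 lay above control 1, so the groups overlapped. The DESeq2 adjusted p with the replicate term was 0.00628, and 0.00288, 0.785 and 0.0858 without pairs 1, 2 and 3. The limma adjusted p was 0.691.

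Spp1 was lower in the knockdown in all 3 pairs, but nearly all of the difference lay in pairs 2 and 3. Its normalised counts, read counts divided by a size factor per library, were 17682, 33426 and 18015 in knockdowns 1, 2 and 3, and 21687, 221762 and 211707 in controls 1, 2 and 3. Controls 2 and 3 were high, and the other 4 libraries, control 1 among them, lay within a narrow low range. The groups overlapped, because knockdown 2 lay above control 1. Control 2 held 10.2 times and control 3 held 9.76 times the level of control 1, whereas the highest knockdown library held 1.89 times the lowest.

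Knockdown libraries kept 81.5% of the Spp1 count of their control in pair 1, 15.1% in pair 2 and 8.51% in pair 3. The log2 differences were -0.29, -2.73 and -3.55. The control counts in these differences are the values Spp1 was chosen by. Being lower in all 3 pairs was by itself common, at 19.7% of the 13997 tested genes.

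The group means of Spp1 were 23041 ± 8996 in the knockdown and 151719 ± 112723 in the control (SD, n = 3 each), so that the knockdown mean was 15.2% of the control mean. The log2 difference was -2.19 with a standard error (SE) of 0.90 in limma. It was -3.30 without control 1, -1.62 without control 2 and -1.66 without control 3, and between -2.49 and -2.04 without 1 of the knockdown libraries. Because the control level chose Spp1 and enters this difference, no test of it is given. The SD of the log2 level was 0.52 among knockdown libraries and 1.92 among controls.

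**Figure D1:**
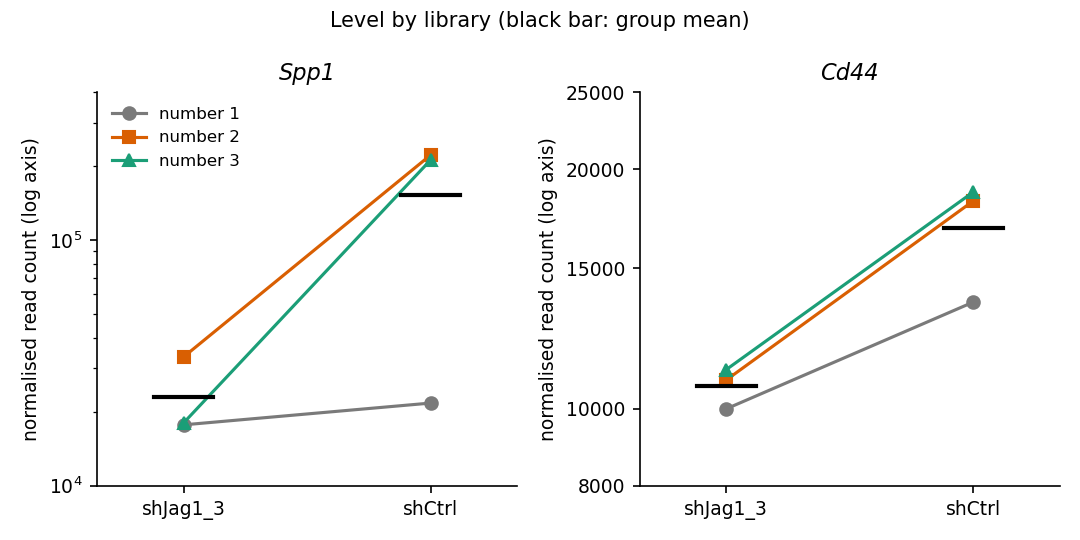
Normalised read counts (log axes) of Spp1 and Cd44 in the 3 shJag1_3 and 3 shCtrl libraries, with a line joining libraries of the same replicate number and a black bar at each group mean. Spp1 of control 1 (21687) sits with the knockdown libraries, whereas all 3 Cd44 values of the knockdown lie below all 3 of the control.

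As a share of all gene reads, Spp1 took 0.0681%, 0.118% and 0.0673% in knockdowns 1, 2 and 3. In controls 1, 2 and 3 it took 0.0862%, 0.804% and 0.769%. The 95% Wilson interval of the largest share ran from 0.800% to 0.807%. These intervals cover counting error only, and those of knockdowns 1 and 3 overlapped. Spp1 ranked 185, 69 and 165 among all genes in knockdowns 1, 2 and 3, and 109, 3 and 3 in controls 1, 2 and 3. Even in the library where it stood lowest in this order, 98.7% of the genes had lower counts.

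Ordered by level, controls 2 and 3 came first and lay close together. Knockdown 2 followed, then control 1, and knockdowns 3 and 1 came last and close together. The order was thus not an order of the groups. In bulk RNA, fewer cells that make Spp1 and less Spp1 RNA per cell cannot be told apart.

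**Figure D2:**
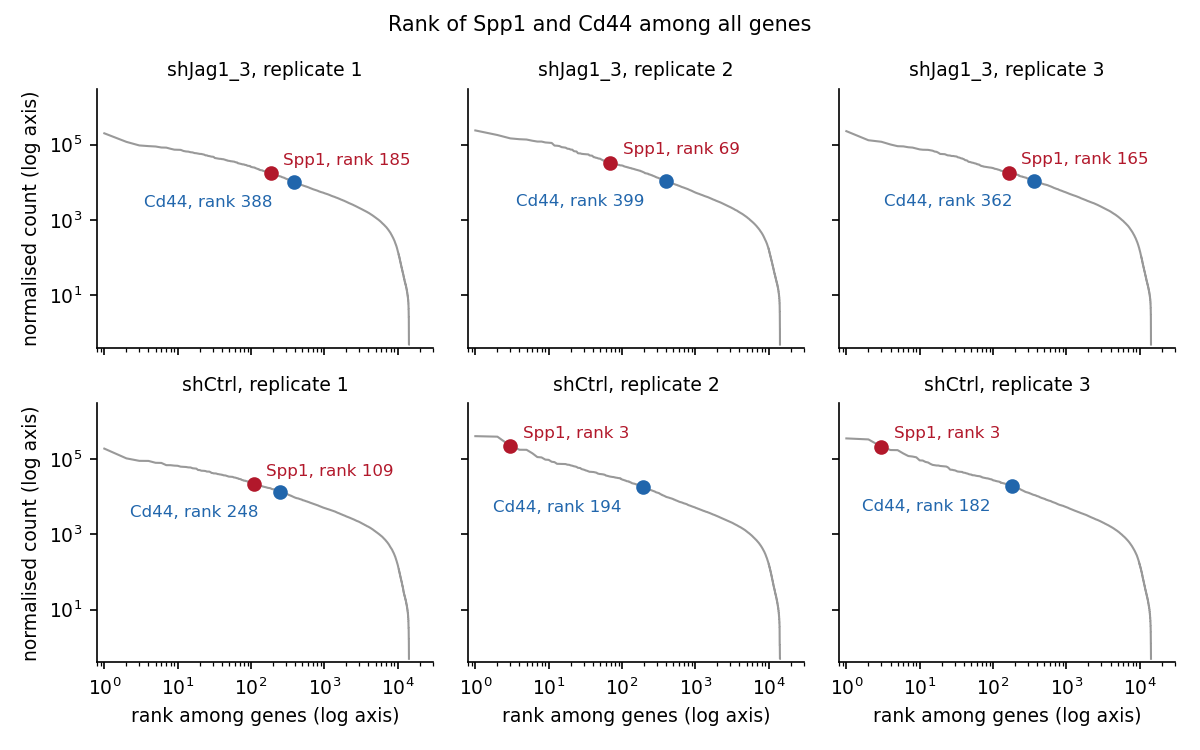
Normalised count against rank (both log axes) for all listed genes in each library, shJag1_3 in the upper row and shCtrl in the lower, with Spp1 in red and Cd44 in blue. Spp1 stands at rank 3 in controls 2 and 3 and between 69 and 185 in the other 4 libraries, while Cd44 stays between 182 and 399.

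By mean control level Spp1 was the third most abundant gene, and by mean knockdown level it ranked 120. Above it stood Eef1a1, the translation elongation factor, and Clu, the secreted chaperone clusterin. Below it came Eef2, another elongation factor, Tpt1, a translationally controlled tumour protein, and mt-Co1, a subunit of respiratory complex IV. Among the 20 genes highest in the controls, 17 had a mean log2 difference below 0, and 8 were lower in all 3 pairs. Because these genes were picked for high control counts, which are subtracted in the difference, the choice itself favours values below 0. Spp1 had the lowest mean difference of the 20, at -2.19. Clu came next at -1.27, with 66116, 112655 and 83728 normalised counts in knockdowns 1, 2 and 3 and 66472, 401711 and 329237 in controls 1, 2 and 3, thus also low in control 1. The highest was Pkm, a glycolytic enzyme, at 0.64. Of the 407 genes with a mean of at least 10000, Lcn2 was the other one with a mean difference as low as that of Spp1, named after its values were seen. It encodes the iron-siderophore carrier lipocalin-2 and stood at 2600.4, 2185 and 1039.9 in knockdowns 1, 2 and 3 and at 721, 26822 and 37036 in controls 1, 2 and 3. Its mean reached 10000 only through controls 2 and 3, so the filter itself favoured a low difference.

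**Figure D3:**
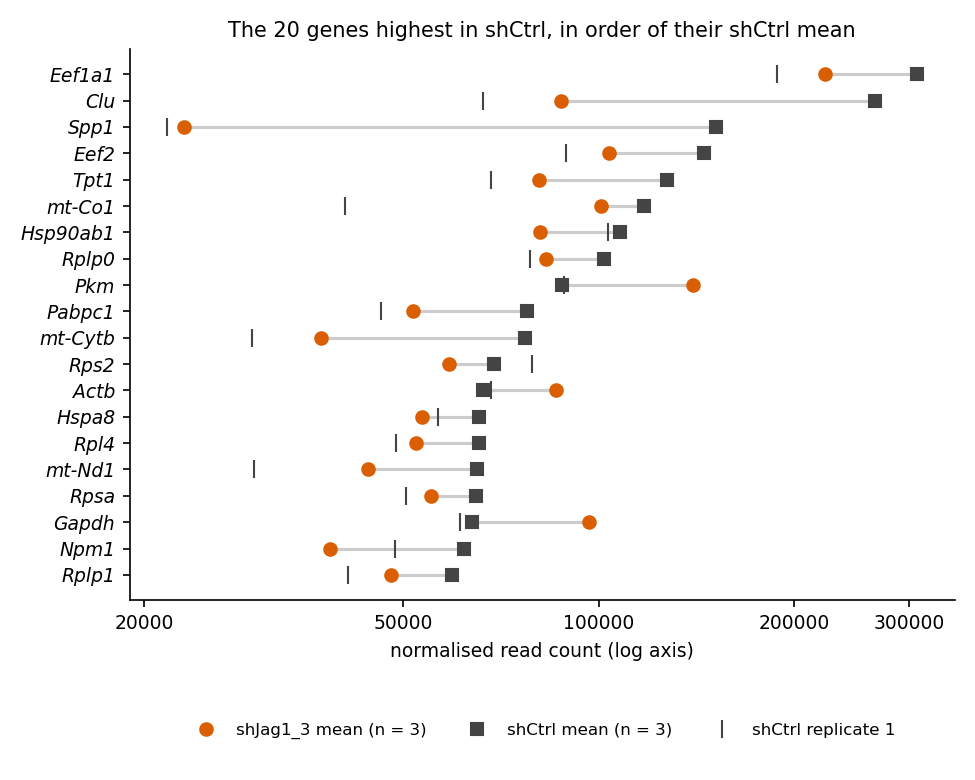
Mean normalised counts (log axis) of the 20 genes highest in shCtrl, with the shJag1_3 mean as a circle, the shCtrl mean as a square and shCtrl replicate 1 as a tick. The gap between the means is widest for Spp1, 23041 against 151719, and its tick at 21687 lies left of the knockdown mean.

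Some measures of sample makeup also differed between control 1 and controls 2 and 3. Mitochondrial genes took 0.555%, 1.02% and 1.20% of gene reads in knockdowns 1, 2 and 3, and 0.595%, 1.55% and 2.03% in controls 1, 2 and 3. Of 14 macrophage markers, 4 were listed (Cd68, Cd14, Mrc1 and Aif1), and their summed level ran from 2374 to 7138 normalised counts in the knockdown and from 1171 to 9761 in the control. Most of this was Cd14, a receptor for bacterial lipopolysaccharide, at 1943.5, 4309 and 3211 in knockdowns 1, 2 and 3 and 874, 7938 and 9085 in controls 1, 2 and 3. Cd68, a lysosomal protein, was at 117, 988 and 400.4 in knockdowns 1, 2 and 3 and at 98.6, 136 and 111 in controls 1, 2 and 3. Mrc1, the mannose receptor, was at 296, 1832 and 1742 in knockdowns 1, 2 and 3 and at 186, 936 and 546 in controls 1, 2 and 3. Both were higher in the knockdown of each pair, and Aif1 stayed between 6.11 and 19.9 in all 6 libraries. The markers Ptprc, Adgre1, Csf1r, Lyz2, C1qa, C1qb, C1qc, Itgam, Fcgr1 and Tyrobp were not among the listed genes, whose lowest total was 61 reads over the 6 libraries. Fibroblast markers (2 of 10 listed) summed to 28.9 to 45.5 in the knockdown and 35.6 to 44.8 in the control, and endothelial markers (2 of 6) to 43.0 to 59.6 in the knockdown and 7.47 to 69.6 in the control. Acinar markers (2 of 8) summed to 11.5 to 89.5 in the knockdown and 9.97 to 82.8 in the control, and none of the 7 lymphocyte or 7 endocrine markers was listed. The part of these differences in the level of Spp1 was not tested.

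A short gene model, Gm42793, overlaps Spp1 on the same strand, sharing 309 of the 1648 exon bases of Spp1. It is named here after its values were seen. Its normalised counts were 7.02, 18.4 and 20.6 in knockdowns 1, 2 and 3 and 7.46, 299.8 and 256.6 in controls 1, 2 and 3, high in the same libraries as Spp1. It never exceeded 0.135% of the Spp1 count, and adding it left the log2 difference of Spp1 at -2.19. A count this small could not move that difference. How reads in the shared bases were counted is not known, so the effect of the overlap was not tested.

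Cd44 was lower in all 3 knockdown libraries than in any control library, by a smaller and more even step. Its normalised counts were 9992, 10862 and 11194 in knockdowns 1, 2 and 3, and 13609.7, 18240.0 and 18717 in controls 1, 2 and 3. The lowest control, control 1, lay above the highest knockdown library, so the groups did not overlap, as was the case for 5.44% of tested genes in this direction. The means were 10683 ± 621 in the knockdown and 16856 ± 2821 in the control (SD, n = 3 each), 63.4% of the control mean. Within the pairs, the knockdown kept 73.4%, 59.6% and 59.8%, or log2 differences of -0.45, -0.75 and -0.74.

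The knockdown libraries were close to each other in Cd44. The SD of their log2 levels was 0.085, and 95.6% of tested genes had a larger one. Among controls it was 0.26, and 60.3% of genes had a larger one. By count Cd44 ranked 388, 399 and 362 in knockdowns 1, 2 and 3, and 248, 194 and 182 in controls 1, 2 and 3. It took 0.0385%, 0.0385% and 0.0418% of gene reads in knockdowns 1, 2 and 3, and 0.0541%, 0.0661% and 0.0680% in controls 1, 2 and 3.

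The change in Cd44 passed one of the tests used and missed the others. In limma the log2 change was -0.64 (SE 0.19, 95% interval -1.09 to -0.20) with an adjusted p of 0.606, where 0% of the tested genes passed in either direction and 1021 had an unadjusted p below 0.05. The counts were the same in edgeR without the replicate term. In simulated data these 2 fits called 0 of 200 genes changed 2-fold or 4-fold. With the replicate number as a term, DESeq2 gave -0.64 (SE 0.17, adjusted p = 0.00488), in a fit that called 2.58% of tested genes lower. That call was lost without pair 2 (DESeq2 adjusted p = 0.729) and without pair 3 (DESeq2 adjusted p = 0.474), and was kept without pair 1 (DESeq2 adjusted p = 0.00201). The adjusted p with the replicate term was 0.149 in limma and 0.182 in edgeR, and without it 0.121 in DESeq2 and 0.626 in edgeR. Permuting the 6 log2 values exactly, two-sided and without regard to the pairs, gave p = 0.1, the smallest that 3 against 3 libraries allow. Counts per gene add up all splice forms, so nothing can be said here about the variant exons of Cd44.

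**Figure D4:**
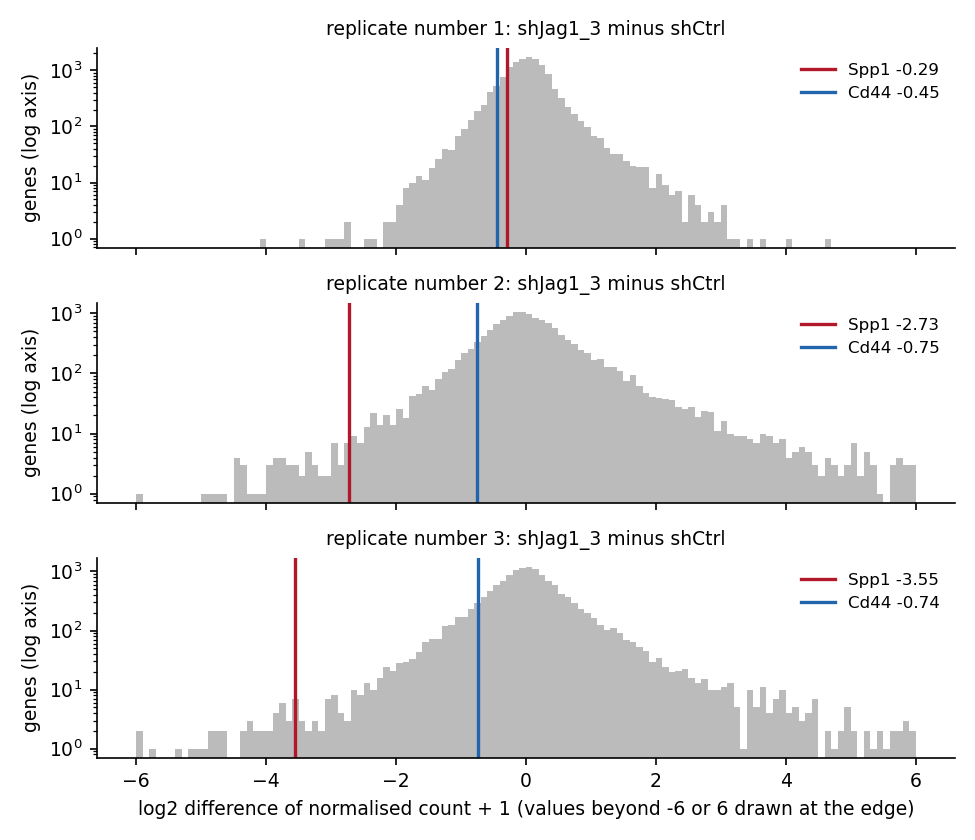
Histograms of the log2 differences, shJag1_3 minus shCtrl, of all 13997 tested genes for each replicate number (gene counts on a log axis), with lines at Spp1 (red) and Cd44 (blue). Cd44 moves little between the panels, -0.45, -0.75 and -0.74, whereas Spp1 lies at -0.29, -2.73 and -3.55.

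Set on one scale by dividing counts by exon length in kilobases, the ligand was above its receptor in every library, by a varying margin. The level of Spp1 per kilobase was 7.28, 12.7 and 6.62 times that of Cd44 in knockdowns 1, 2 and 3, and 6.55, 50.0 and 46.5 times in controls 1, 2 and 3. Mean levels per kilobase were 13981 for Spp1 and 1577 for Cd44 in the knockdown, and 92062 and 2488 in the control.

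The genes most like Spp1 were those with the smallest root mean square difference from it in log2 values centred over the 6 libraries, among 10286 named genes with a mean of at least 100. They were Pilrb1, an immunoglobulin-like receptor, at 0.19, Rapgef3, a cAMP-activated exchange factor, at 0.29, Rbp4, the retinol carrier of plasma, at 0.36, Mxra8, a matrix-associated surface protein, at 0.37, and the serine protease Prss12 at 0.41, against a median of 1.62 over all candidates. Rbp4, the most abundant of these 5, had 1039, 1083 and 789 normalised counts in knockdowns 1, 2 and 3 and 632, 11581 and 10305 in controls 1, 2 and 3. Each of the 5 was low in all knockdown libraries and control 1 and high in controls 2 and 3, which follows from choosing them by likeness to Spp1. Pilrb1 has a close paralog, so its count is uncertain.

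The genes most like Cd44 by the same measure were the poly(A)-binding protein gene Pabpc4 at 0.057, the G protein regulator Rgs19 at 0.060, Fam120b at 0.060, the lysosomal peptidase Tpp1 at 0.074 and the transporter gene Mfsd4b4 at 0.075, against a median of 0.470. Pabpc4 had 9076, 8831 and 10040.4 normalised counts in knockdowns 1, 2 and 3, and 11702, 16647 and 16277 in controls 1, 2 and 3. None of the 5 nearest to Cd44 was among those nearest to Spp1. Mfsd4b4 belongs to a cluster of related copies, and its count is uncertain.

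Few of the other genes of osteopontin and CD44 biology passed a test. Of 79 such genes in 8 lists, 56 were tested. DESeq2 with the replicate term called 5 of them higher (8.93%), against 4.57% of all tested genes. It called 1 lower (1.79%), against 2.58% of all tested genes. A further 49 did not pass, and 1, Hyal3, had no adjusted p. In limma 0 were called, with 6 of the 56 at an unadjusted p below 0.05, against 1021 of all 13997 tested genes. Likewise 0 of the list genes were called in limma with the replicate term. Their median log2 change in limma was 0.17, against 0.00 over all tested genes. All 6 calls were lost without pair 2 and without pair 3, and that of Msn also without pair 1 (DESeq2 adjusted p = 0.072). With scaling by spike-in reads, which moved the median of all genes by -0.18, the 6 called genes kept their direction, while 12 list genes changed sign, among them Itgb1, Rela, Hyal2 and Hnrnpa1.

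The other SIBLING family genes, Ibsp, Dmp1, Dspp and Mepe, were not among the listed genes. Of 10 integrin chains that form osteopontin receptors, 8 were tested, with a median log2 change of 0.09, and 1 was called, higher. This was Itgb6, the epithelial beta chain that pairs with alpha v. It had 289, 221 and 236 normalised counts in knockdowns 1, 2 and 3, and 161, 26.4 and 28.7 in controls 1, 2 and 3, so the groups did not overlap. The DESeq2 change was 2.30 (SE 0.50, adjusted p = 3.94e-04 with the replicate term), with an adjusted p of 0.606 in limma. Controls 2 and 3, the libraries highest in Spp1, were the lowest in Itgb6. How common it is among all tested genes for groups not to overlap in the higher direction is not given, for Itgb6 or the genes below. The most abundant chains were Itgb1, at 17403 ± 3249 in the knockdown and 16924 ± 2007 in the control (SD, n = 3 each; limma log2 change 0.03, SE 0.21), and Itgav, the alpha v chain, at 4575 ± 2640 and 2966 ± 1036 (0.46, SE 0.57). Neither passed.

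Of 11 enzymes that modify osteopontin, 5 were tested, with a median limma log2 change of 0.20. Acp5, a tartrate-resistant phosphatase that removes phosphates from osteopontin, was called higher. Its normalised counts were 2404, 2559.5 and 1439 in knockdowns 1, 2 and 3, and 1602, 907 and 861 in controls 1, 2 and 3, with an overlap between knockdown 3 and control 1 (DESeq2 log2 change 0.94, SE 0.24, adjusted p = 0.00429 with the replicate term). The most abundant were cathepsin D (Ctsd), at 11754 ± 4964 in the knockdown and 9740.2 ± 1397 in the control, and Fam20c, the kinase that phosphorylates osteopontin in the secretory pathway, at 2969 ± 1206 and 4081 ± 1158 (SD, n = 3 each). Neither passed.

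Of 10 transcription factors reported at the Spp1 gene, 8 were tested, with a median log2 change of 0.09. Jun, a subunit of AP-1, was called higher, at 1163 ± 93.5 in the knockdown and 741 ± 112 in the control (SD, n = 3 each), with no overlap between the groups (DESeq2 log2 change 0.66, SE 0.19, adjusted p = 0.0154 with the replicate term). The most abundant, the NF-kB subunit Rela and the AP-1 subunit Fosl1, were at 0.11 (SE 0.18) and 0.22 (SE 0.51) in limma and did not pass.

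Of 17 genes for hyaluronan synthesis, breakdown and binding, 8 were tested, with a median limma log2 change of 0.51. Their median differences were -0.10, 0.34 and 1.20 in pairs 1, 2 and 3. The hyaluronidase Hyal1 was called higher, at 36.0, 687 and 274 normalised counts in knockdowns 1, 2 and 3, and 24.0, 97.6 and 93.4 in controls 1, 2 and 3 (DESeq2 log2 change 1.70, SE 0.45, adjusted p = 0.00517 with the replicate term). The groups overlapped, since both replicate 1 libraries were low. In limma its log2 change of 1.64 became 2.82 without knockdown 1, 0.71 without knockdown 2 and 0.99 without control 1. Hyal2, another hyaluronidase, and Hmmr, a hyaluronan-binding protein of the mitotic spindle, were the most abundant, with limma log2 changes of 0.13 (SE 0.24) and 0.98 (SE 0.51), and did not pass.

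Of 10 membrane partners and cytoskeletal linkers of CD44, all were tested, with a median limma log2 change of 0.21. Moesin (Msn) was called lower, the 1 list gene called in the direction of Cd44. It had 2936, 6946 and 8411 normalised counts in knockdowns 1, 2 and 3, and 4375, 11189.5 and 10669.6 in controls 1, 2 and 3 (DESeq2 log2 change -0.53, SE 0.17, adjusted p = 0.0288 with the replicate term). Its levels were low in both replicate 1 libraries and the groups overlapped. In limma its log2 change of -0.54 became -0.08 without knockdown 1 and -0.83 without knockdown 3. It became -0.98, -0.30 and -0.33 without controls 1, 2 and 3. Ezrin (Ezr), the related linker and most abundant gene of the list, was at 23508 ± 4387 in the knockdown and 17543 ± 720 in the control (SD, n = 3 each; limma log2 change 0.40, SE 0.20), with no overlap, and did not pass. Radixin (Rdx), named after its values were seen, had 2407, 2284 and 2629 normalised counts in knockdowns 1, 2 and 3. In controls 1, 2 and 3 it had 3418, 2904 and 3187, higher in each pair. It did not pass (DESeq2 adjusted p = 0.178 with the replicate term).

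All 10 genes for CD44 cleavage were tested and 0 were called by DESeq2 with the replicate term or by limma. Against 1021 of all 13997 tested genes, 1 of these 10 had an unadjusted p below 0.05 in limma. The most abundant were the sheddase Adam10, at 6380 ± 601 in the knockdown and 5308 ± 1267 in the control, and the gamma-secretase subunit Ncstn, at 4550 ± 397 and 3915 ± 22.8 (SD, n = 3 each). Adam17, another sheddase, named after its values were seen, was lower in each pair, at 1793 ± 126 in the knockdown and 2496 ± 321 in the control. It did not pass (DESeq2 adjusted p = 0.0631 with the replicate term), and the median limma log2 change of the list was 0.17. The 7 regulators of CD44 exon splicing, all tested, had a median limma log2 change of 0.12. Esrp1, which favours epithelial splice forms, was called higher. It had 2386, 3054 and 4581 normalised counts in knockdowns 1, 2 and 3, and 2215, 1696 and 1722 in controls 1, 2 and 3, with no overlap (DESeq2 log2 change 0.79, SE 0.27, adjusted p = 0.0490 with the replicate term). The RNA-binding proteins Ybx1 and Hnrnpa1 were the most abundant, at 0.31 (SE 0.21) and 0.12 (SE 0.18) in limma, and did not pass.

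**Figure D5:**
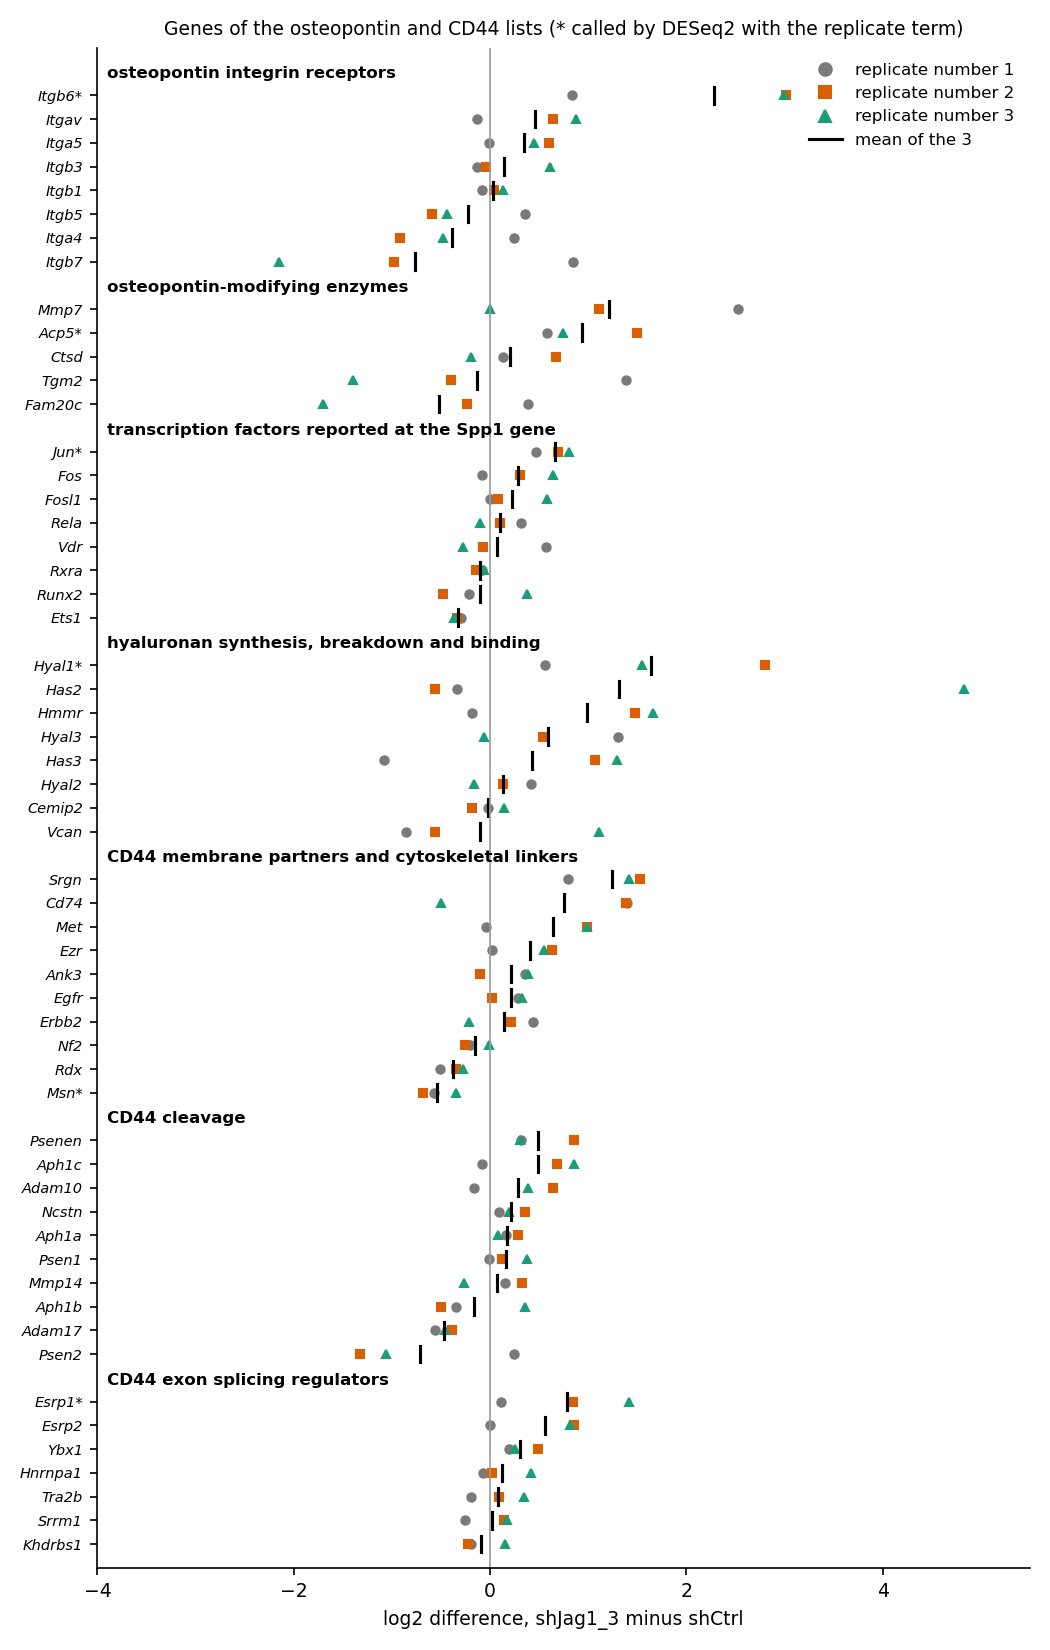
Log2 differences, shJag1_3 minus shCtrl, of the 56 tested list genes for replicate numbers 1 (circles), 2 (squares) and 3 (triangles), with a black bar at their mean and a star on the 6 genes called by DESeq2 with the replicate term. Msn is the 1 starred gene left of 0, and the symbols of pair 1 often lie nearer to 0 than those of pairs 2 and 3, as for Itgb6 at 0.84 against 3.02 in pair 2.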

How the data were processed

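RNA was measured in 6 libraries, 3 per group, grouped by sample title. The submitters' processing notes name Trimmomatic, STAR 2.5.2b, DESeq2 1.32.0 and GRCm38. The counting tool and annotation are not given in the sources used here. Library preparation, per the labels' protocols, used a TruSeq RNA kit that does not mark strand. The deposited values are a signal per gene that the values themselves show to be read counts divided by 1 size factor per library. Within 0.001 of a read, 100% of the values were whole multiples of 1 step, so whole reads were recovered. The 6 deposited tables were identical and 5 were left out. Of 14302 features, 48 were spike-ins.

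The test was limma-trend (limma 3.58.1, R 4.3.3) on log2 of the normalised count plus 1, for 13997 genes with at least 10 in at least 3 libraries, with Benjamini-Hochberg adjustment over all of them and a threshold of 0.05. On this scale changes of low genes are understated. edgeR 4.0.16 and DESeq2 1.42.0 were run on the recovered reads, and each of the 3 also with a replicate block, a term for the replicate number. These fits were run on simulated reads that kept the replicate-number differences, with 200 genes changed 2-fold or 4-fold. Without the replicate term limma and edgeR called 0 of these, so not passing in them does not show that a gene was unchanged. With the term, limma called 51 of the 2-fold and 97 of the 4-fold genes, and DESeq2 called 53 and 96. Unchanged genes called in these 2 fits numbered 6 and 14. The simulation set the same spread between libraries for every gene and the same change in every pair, which real genes need not have. In the real data these 2 fits called 2 and 1001 genes, so the simulation does not show how reliable their real calls are. Same-numbered libraries deviated together (r = 0.677, 0.568 and 0.443 across genes, each over the 0.1 required) and were treated as pairs. Knockdown 2 with control 3 (r = 0.385) and knockdown 3 with control 2 (r = 0.365) also exceeded 0.1. Pairs 2 and 3 are thus less clearly told apart from each other than from pair 1. What the numbers mark is not stated. The design text calls the replicates biological but not whether cultures were separate, so p-values measure the spread between these libraries.

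The members, lists and tests were chosen with earlier results of these data known. Genes were named by rule: Jag1, from each list the 2 most abundant tested genes and up to 4 called by DESeq2 with the replicate block, up to 3 genes on either side of Spp1 in control level, and the 5 nearest genes of each member. Other named genes are markers or are said to be chosen after their values were seen. Alternatives were other pseudocounts, filters and scalings, and left-out libraries or pairs. Sequences came from RefSeq (GRCm38.p6) and GENCODE M21.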

Additional observations from a re-analysis of the deposited data

How the results depend on the processing

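The direction of Cd44 and Spp1 was the same under all 24 other settings, and for Spp1 under 1 more chosen after seeing the data (values of an overlapping gene added). Each setting reuses control counts by which Spp1 was chosen, so the shared direction of Spp1 adds no support. Spp1 ranged from -3.30 without control 1 to -1.50 in DESeq2 with the replicate block and without pair 3. The log2 change of Cd44 ranged from -0.79 to -0.56 when libraries or pairs were left out in limma. It passed at -0.74 in limma without pair 1, and with the replicate block in DESeq2, at -0.64 with all libraries and -0.75 without pair 1. Under the 21 remaining settings it did not pass.

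Of all tested genes 0 were called in limma and 174 in DESeq2. The replicate block gave 2 calls in limma, 2 in edgeR and 1001 in DESeq2. In that last fit 2120, 97 and 127 were called without pair 1, 2 and 3. Spike-in scaling gave 116, and leaving out libraries or pairs in limma gave 0 to 1346, the highest without pair 1. Of the list genes, 6 were called in DESeq2 with the replicate block and 14 there without pair 1, and 0 to 10 with libraries or pairs left out in limma. The cause of these differences was not tested. With 3 libraries per group, of which 1 pair stands apart, the size of the Spp1 difference is poorly fixed.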
